A study of Mus musculus with 11 samples.

Results

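The 9 genes described here, *Mbp*, *Mog*, *Mobp*, *Mag*, *Cnp*, *Slc1a3*, *Gfap*, *Aqp4* and *Aldh1l1*, mark oligodendrocytes and astrocytes of the brain, and were measured in RNA from renal T cells. They were taken by name out of 35814 gene symbols, and were chosen by their levels in these libraries, seen in earlier results, so their values are given as a description with no p-value or call. All 11 libraries came from the kidneys of male C57BL/6 mice between 8 and 12 weeks old, 2 days after ischemia reperfusion injury (IRI), in which both renal pedicles were clamped for 45 min. All groups carried Cre recombinase under the CD4 promoter: CD4cre mice (n = 3) had no floxed target, CD4IKK1Δ mice (n = 5) also had floxed IKK1 (gene *Chuk*), and CD4NIKΔ mice (n = 3) floxed NIK (gene *Map3k14*), both kinases of the non-canonical NF-κB pathway. CD4+ T cells were enriched with beads and sorted by flow cytometry, and their RNA was amplified before sequencing.

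Oligodendrocytes wrap axons of the central nervous system in myelin, a stack of membranes held together by a small set of abundant proteins, and Schwann cells do the same in peripheral nerves, such as those of the kidney. Astrocytes take up glutamate from synapses and move water and ions between blood and brain. Neither cell type resides in the kidney, but several of these genes are not exclusive to glia: forms of *Mbp* and *Cnp* are made in lymphocytes, and *Aqp4* and *Aldh1l1* in parts of the renal epithelium.

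The depth of the libraries was 15751632 to 25737046 estimated counts, and levels are given as CPM (counts per 1000000 counts of the library) after TMM scaling. No pair among the 55 pairs of libraries was identical. *Map3k14*, the gene targeted in CD4NIKΔ mice, stood at 17.9 ± 2.78 CPM in CD4cre (SD, n = 3), 5.97 ± 2.81 CPM in CD4IKK1Δ (n = 5) and 22.5 ± 8.98 CPM in CD4NIKΔ libraries (n = 3), so the libraries labelled CD4NIKΔ did not have a lower level. *Chuk* stood at 22 ± 9.67, 20.4 ± 4.55 and 33.5 ± 8.81 CPM in the same order. Values per gene do not resolve the floxed exons, so neither gene checks a label. T cell receptor constant genes held 12558 to 35820 counts in CD4cre and 60124 to 111648 in CD4NIKΔ libraries, but only 41 and 868 counts in CD4IKK1Δ 1 and 2, against 5277 to 11413 in the other CD4IKK1Δ libraries. The summed level of 18 neuronal genes was between 2740 and 12600 CPM over all libraries. Fewer cells of a type and less RNA per cell cannot be told apart in such bulk samples.

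The 9 genes fell into 3 kinds by level. *Mbp*, *Mobp*, *Slc1a3* and *Aqp4* were detected in every library and lowest in CD4NIKΔ. *Cnp* was detected in every library and highest in CD4NIKΔ. *Mog*, *Mag*, *Gfap* and *Aldh1l1* were low and scattered, from 0 to 3 counts in the lowest library to 78, 106, 126 or 146 counts in the highest. The start regions of *Mobp* and *Cnp*, myelin genes with opposite orders of the groups, are shown to let them be compared. Both run 5′ to 3′ on the + strand of GRCm39, from the start of the RefSeq window before the gene's start to the last base before the first exon that GENCODE M39 places there, and capitals mark ACAAAG or its reverse complement CTTTGT, the core letters of SOX factor motifs. The *Mobp* stretch of 126 bases, chr9:119978558-119978683, lies inside the *Mobp* gene model, before the first exon of shorter transcripts. The *Cnp* stretch of 215 bases, chr11:100465515-100465729, lies directly before *Cnp*.
Mobp: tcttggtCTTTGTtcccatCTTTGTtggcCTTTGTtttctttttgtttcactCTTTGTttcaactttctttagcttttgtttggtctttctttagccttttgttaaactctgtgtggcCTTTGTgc
Cnp: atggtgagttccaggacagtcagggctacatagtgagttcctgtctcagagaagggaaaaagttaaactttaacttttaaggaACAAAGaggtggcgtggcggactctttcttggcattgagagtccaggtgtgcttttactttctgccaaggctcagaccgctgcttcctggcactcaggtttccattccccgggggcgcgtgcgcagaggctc
The *Mobp* stretch holds 5 matches and the *Cnp* stretch 1. Over the whole window of 250 bases *Mobp* holds 6, and of 32851 RefSeq windows of that length 16.5% hold at least 1 match and 0.00304%, the *Mobp* window alone, at least 6. The threshold of 6 was taken from the *Mobp* window itself, so this share is a description and no measure of rarity. The windows of *Mog*, *Slc1a3*, *Gfap* and *Aldh1l1* hold 0 matches, and those of *Mag* 0 or 1. The RefSeq windows were matched to GRCm39 for 7 of the 9 genes. A match describes letters and is not a binding site.

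*Mbp* encodes myelin basic protein, which binds the inner faces of the myelin membrane together. It stood at 357, 408 and 508 CPM in the CD4cre libraries, at 352, 521, 477, 544 and 538 CPM in CD4IKK1Δ, and at 301, 126 and 114 CPM in CD4NIKΔ. All 3 CD4NIKΔ libraries lay below all others, while the CD4cre and CD4IKK1Δ values overlapped. *Mobp*, for myelin-associated oligodendrocyte basic protein, had 128, 105 and 159 CPM in CD4cre, 133, 183, 151, 145 and 172 CPM in CD4IKK1Δ, and 85.9, 45.7 and 37.7 CPM in CD4NIKΔ. The order of the groups was that of *Mbp*, and in both genes CD4NIKΔ 1 was the highest library of its group.

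**Figure D1:**
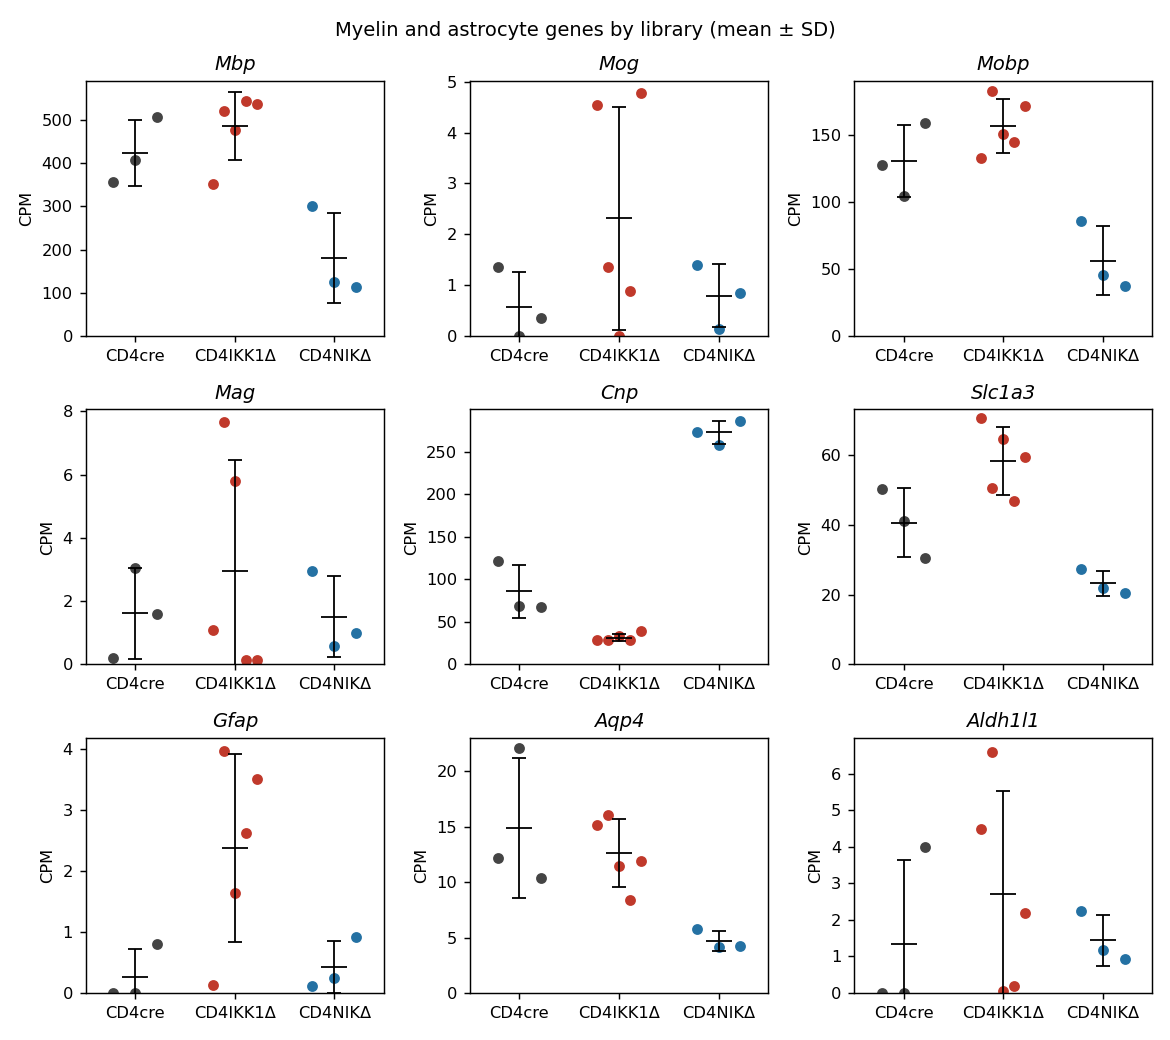
CPM of each of the 9 genes in every library (points), with the mean and SD of each group, on a linear scale that differs between panels. *Mbp*, *Mobp*, *Slc1a3* and *Aqp4* were lowest in CD4NIKΔ, *Cnp* was highest there at 258 to 286 CPM, and *Mog*, *Mag*, *Gfap* and *Aldh1l1* stayed below 8 CPM in every library.

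*Slc1a3* encodes the glutamate transporter GLAST of astrocytes. Its level was 50.3, 41 and 30.6 CPM in CD4cre, 70.5, 50.5, 64.6, 46.9 and 59.3 CPM in CD4IKK1Δ, and 27.3, 21.9 and 20.6 CPM in CD4NIKΔ. *Aqp4*, the water channel of astrocyte endfeet, had 12.2, 22.1 and 10.4 CPM in CD4cre, 15.2, 16.1, 11.5, 8.39 and 11.9 CPM in CD4IKK1Δ, and 5.75, 4.18 and 4.23 CPM in CD4NIKΔ. For both genes the CD4NIKΔ libraries did not overlap with the others, and CD4cre and CD4IKK1Δ did overlap.

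*Cnp* encodes a cyclic nucleotide phosphodiesterase of non-compact myelin. It reached 122, 68.2 and 67 CPM in CD4cre, 28.4, 28.9, 33.4, 28.5 and 38.8 CPM in CD4IKK1Δ, and 273, 258 and 286 CPM in CD4NIKΔ. No group overlapped with another, in the order CD4IKK1Δ, CD4cre, CD4NIKΔ. *Dnajc7*, a gene on the opposite strand whose span overlaps that of *Cnp*, had 3630 to 9030 counts per library. Whole gene spans were compared and not exons, and the strand setting of the counting is not given in the sources used here. Whether reads of *Dnajc7* enter the *Cnp* level was not tested.

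*Mog*, a surface protein of the outermost myelin layer, had 35, 0 and 7 counts in CD4cre, 71, 26, 0, 18 and 106 counts in CD4IKK1Δ, and 25, 3 and 12 counts in CD4NIKΔ. *Mag*, an adhesion protein between axon and myelin, had 5, 63 and 32 counts, then 17, 146, 102, 3 and 3, then 53, 12 and 14 counts in the same groups. Counts scattered between libraries of a group by more than they differed between groups. *Gfap*, the intermediate filament that defines reactive astrocytes, had 0, 0 and 16 counts in CD4cre, 2, 76, 29, 53 and 78 in CD4IKK1Δ, and 2, 5 and 13 in CD4NIKΔ. *Aldh1l1*, a folate enzyme used as a general astrocyte marker, had 0, 0 and 80 counts, then 70, 126, 1, 4 and 49, then 40, 24 and 13 counts. The groups overlapped in all 4 genes. A count of 0 allows up to 3 counts, or 0.115 to 0.211 CPM depending on the library, for counting error only. Such low values do not show absence, because *Pgk1* and *Polr2a*, genes that every cell uses and chosen after their values were seen, also stood at 0 to 1.8 and 0 to 1.04 CPM. Not all such genes were low, as *Gapdh* stood at 1630 to 2500 CPM and *Actb* at 1570 to 8160 CPM.

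To compare levels between genes, CPM were divided by the length of the GENCODE canonical transcript. Per kilobase, *Mbp* led with a median level of 189 CPM in CD4cre and 242 CPM in CD4IKK1Δ, followed by *Mobp* with 81.7 and 96.4 CPM, and then by *Cnp* with 28.9 and 12.3 CPM and *Slc1a3* with 9.77 and 14.1 CPM, whose medians changed order between these groups. In CD4IKK1Δ the *Cnp* range of 12 to 16.5 overlapped with the *Slc1a3* range of 11.2 to 16.8 CPM per kilobase. In CD4NIKΔ *Cnp* led with a median of 116, ahead of *Mbp* with 58.5 and *Mobp* with 29.2 CPM per kilobase, but the ranges of *Cnp* (109 to 121) and *Mbp* (52.9 to 140) overlapped, as did those of *Mbp* and *Mobp* (24.1 to 54.9).

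The question of the study's comparison of CD4IKK1Δ with CD4cre was what loss of IKK1 in CD4+ T cells changes in their transcriptome. *Cnp* was the only one of the 9 genes whose groups did not overlap, at 31.6 ± 4.55 CPM in CD4IKK1Δ (SD, n = 5) against 85.9 ± 31.6 CPM in CD4cre (n = 3), a log2 fold change of -1.44 (SE 0.22). Of all 15653 genes tested, 8.44% did not overlap and were lower, and 5.99% did not overlap and were higher. The log2 fold changes were 0.20 (SE 0.16) for *Mbp*, 0.26 (SE 0.15) for *Mobp*, 0.52 (SE 0.21) for *Slc1a3* and -0.24 (SE 0.36) for *Aqp4*. They were 2.01 (SE 1.59) for *Mog*, 0.87 (SE 1.34) for *Mag*, 3.15 (SE 1.63) for *Gfap* and 1.03 (SE 1.83) for *Aldh1l1*, whose counts scattered widely between libraries of a group. Without CD4cre 3, which leaves CD4cre at 0 counts of *Gfap* and *Aldh1l1*, the fitted values were 8.59 and 8.78 and give no bound, and without CD4cre 1 that of *Mog* was 3.69. Leaving out CD4IKK1Δ 2 lowered the values of *Mag* and *Aldh1l1* to 0.14 and 0.39.

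In CD4NIKΔ against the same CD4cre libraries, *Mbp* was at 180 ± 105 CPM (SD, n = 3) against 424 ± 76.7 CPM (n = 3), with a log2 fold change of -1.25 (SE 0.38). *Mobp* had -1.23 (SE 0.34), *Slc1a3* -0.82 (SE 0.27) and *Aqp4* -1.67 (SE 0.43) on the log2 scale. *Cnp* was at 272 ± 14.5 CPM in CD4NIKΔ, a log2 fold change of 1.65 (SE 0.26). Scaled to the summed neuronal genes, a scaling chosen after the values were seen, the log2 fold changes were -0.11 for *Mbp*, -0.05 for *Mobp*, 0.43 for *Slc1a3*, -0.42 for *Aqp4* and 2.95 for *Cnp*, and the median of all genes moved from -0.02 to 1.29. Thus 4 of the 9 genes did not overlap and were lower and 1 did not overlap and was higher, beside 22.1% and 23% of all 15209 genes tested. *Gfap* did not pass the filter on low counts here, which the other 8 genes did; all 9 passed in the other comparisons.

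CD4IKK1Δ against CD4NIKΔ, fitted over all 11 libraries, gave log2 fold changes of 1.44 (SE 0.30) for *Mbp*, 1.48 (SE 0.26) for *Mobp*, 1.33 (SE 0.22) for *Slc1a3*, 1.43 (SE 0.37) for *Aqp4* and -3.10 (SE 0.20) for *Cnp*. The first 4 did not overlap and were higher, and *Cnp* did not overlap and was lower, beside 20.5% and 24.6% of all 16546 genes tested. These signs were kept in 18 of 19 alternatives for *Mbp*, *Mobp*, *Slc1a3* and *Aqp4* and in 19 of 19 for *Cnp*. The exception was 1 scaling. With libraries scaled to the summed neuronal genes, the log2 fold changes of *Mobp*, *Slc1a3* and *Aqp4* were -0.01, -0.26 and -0.17 and that of *Mbp* was 0, while *Cnp* had -4.75. That scaling moved the median log2 fold change of all genes from 0.06 to -1.57.

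*Mbp* and *Mobp* varied less between libraries relative to the neuronal genes, none of which is among the 9, than in CPM. The *Mbp* level equalled 4.35, 4.49 and 5.13% of the summed neuronal CPM in CD4cre, 2.8, 4.34, 4.36, 5.15 and 4.97% in CD4IKK1Δ, and 5.17, 3.62 and 4.16% in CD4NIKΔ, and the groups overlapped. *Mobp* equalled 1.56, 1.15 and 1.61%, then 1.06, 1.52, 1.38, 1.37 and 1.59%, then 1.47, 1.31 and 1.38% in the same groups. From the lowest to the highest library *Mbp* spanned 4.78-fold in CPM and 1.84-fold as a percentage of the neuronal sum, and *Mobp* 4.85-fold and 1.52-fold. The spans narrowed less for *Slc1a3*, from 3.42-fold to 2.43-fold, and for *Aqp4*, from 5.28-fold to 3.07-fold. For *Cnp* the span widened from 10.1-fold to 46.3-fold. Among all 9540 genes tested with at least 20 counts in every library, the span was narrower as a percentage of the neuronal sum in 30.1%, with a median span of 3.78-fold in CPM and 5.82-fold as a percentage. Of 24 other glial genes of that depth it was narrower in 20, or 83.3%, with medians of 5.32-fold and 2.78-fold.

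**Figure D2:**
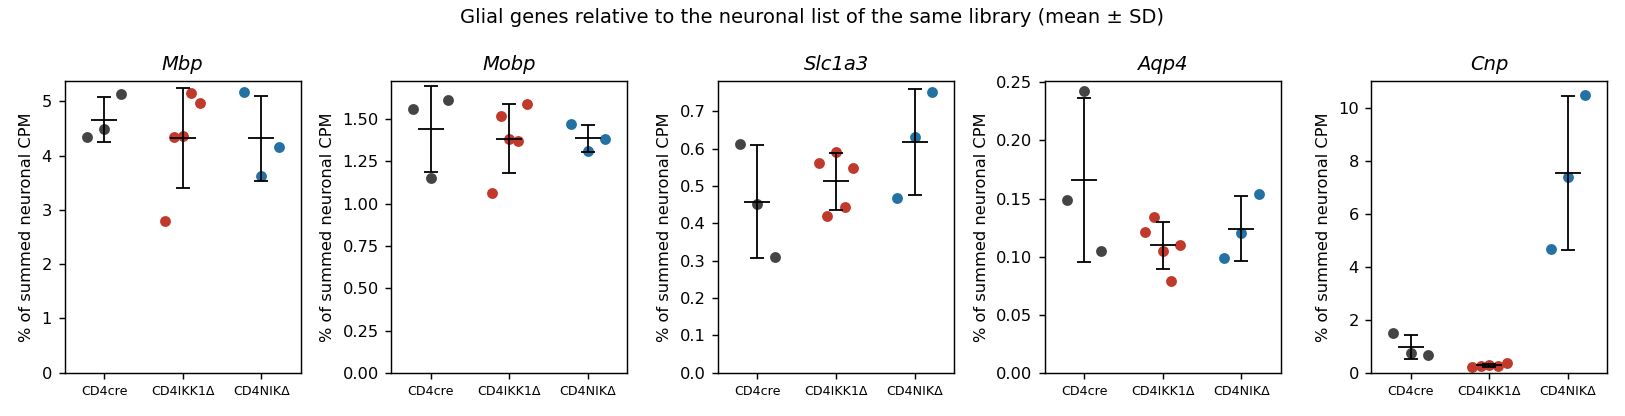
CPM of *Mbp*, *Mobp*, *Slc1a3*, *Aqp4* and *Cnp* as a percentage of the summed CPM of 18 neuronal genes in the same library (points), with the mean and SD of each group. The groups overlapped for the first 4 genes, whereas *Cnp* lay at 4.69 to 10.5% in CD4NIKΔ against 0.226 to 0.359% in CD4IKK1Δ.

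The summed neuronal level itself was 8210, 9080 and 9890 CPM in CD4cre, 10600 to 12600 CPM in CD4IKK1Δ, and 5830, 3480 and 2740 CPM in CD4NIKΔ, lowest in the same group as *Mbp*. *Stmn3* and *Gap43*, with mean levels of 3190 and 2080 CPM over all libraries, were the largest parts of this sum. In CD4IKK1Δ 1 the sum and *Mbp* ran apart, with the highest neuronal sum, 12600 CPM, and the lowest *Mbp* level of the group, 352 CPM. CD4IKK1Δ 2 stood above CD4IKK1Δ 3 in both, with sums of 12000 and 10900 CPM and *Mbp* at 521 and 477 CPM. The summed level of 15 T cell genes ran opposite to the neuronal sum over the groups, with 1600 to 3070 CPM in CD4cre, 12.4, 147, 1370, 661 and 590 CPM in CD4IKK1Δ and 8490, 11400 and 12600 CPM in CD4NIKΔ. The order of the groups in the T cell sum was that of *Cnp*. Within CD4IKK1Δ, though, *Cnp* stayed between 28.4 and 38.8 CPM while the T cell sum ran from 12.4 to 1370 CPM. The part of T cell or neuronal RNA in these levels was not tested.

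**Figure D3:**
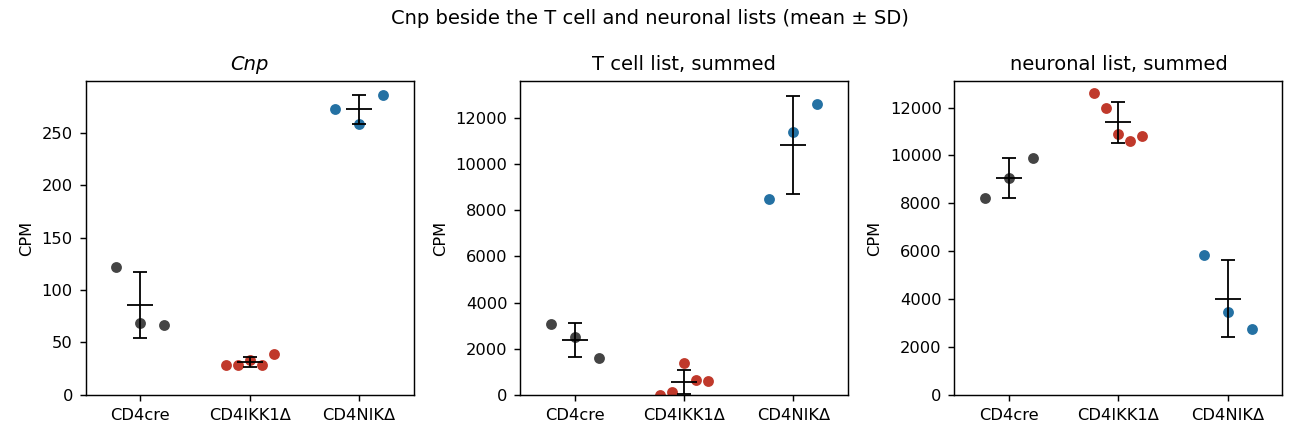
*Cnp* (left), the summed 15 T cell genes (middle) and the summed 18 neuronal genes (right) in CPM for every library (points), with the mean and SD of each group. *Cnp* and the T cell sum were highest in the 3 CD4NIKΔ libraries, where the neuronal sum was lowest at 2740 to 5830 CPM.

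The genes whose log2 CPM followed *Mbp* most closely over the 11 libraries, out of 16659 genes, were *Ak1* (Pearson r = 0.992), *Rnf187* and *Tm2d2* (both 0.991), and *Rbfox3* and *Pdxp* (both 0.99). *Rbfox3* encodes the neuronal nuclear protein NeuN. *Mobp* had r = 0.974 with *Mbp*, *Aqp4* 0.759, *Slc1a3* 0.753 and *Cnp* -0.816. For *Slc1a3* the closest were *Klhl3* (0.97), *Cacng2* (0.968), *Gkap1* (0.964), *Slc46a1* (0.96) and *Ss18l2* (0.959). All values share the libraries and their scaling, and the r are descriptions.

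The wider lists held 26 other oligodendrocyte and 24 other astrocyte genes, 49 of the 50 being in the files. CD4IKK1Δ against CD4NIKΔ called 19 of the 44 tested, at an FDR under 0.05 with more than a 2-fold difference in edgeR's quasi-likelihood test; 18 were higher in CD4IKK1Δ and 1 lower, beside 33.3% of all genes (14.8% higher and 18.5% lower). Their median log2 fold change was 1.22, beside 0.06 over all genes tested. Astrocyte genes gave 13 of the higher calls among 21 tested, and oligodendrocyte genes 5 higher and 1 lower among 23. The 13 include *Atp1b2*, with 0 counts in all 3 CD4NIKΔ libraries and at most 18 elsewhere. Its groups overlapped, and its log2 fold change of 5.74 gives no bound. *Sparcl1*, an astrocyte matrix protein that promotes synapse formation, had a log2 fold change of 1.49 (SE 0.25, adjusted p = 0.000606), and *S100b*, a calcium-binding protein of astrocytes, 1.34 (SE 0.25, adjusted p = 0.00101). *Aldoc*, the brain aldolase, had 1.30 (SE 0.25, adjusted p = 0.00142), and *Sox9*, a transcription factor of astrocytes and of renal epithelium, 2.73 (SE 0.57, adjusted p = 0.00229). Of the oligodendrocyte genes, *Omg*, a myelin glycoprotein also made by neurons, had 1.26 (SE 0.24, adjusted p = 0.00132), *Gjc3*, a glial connexin, 1.61 (SE 0.41, adjusted p = 0.00731), and *Opalin*, a membrane protein of central myelin, 1.43 (SE 0.37, adjusted p = 0.00836). *Trf*, the iron carrier transferrin, which liver and other cells also make, was the 1 gene called lower in CD4IKK1Δ, with -1.96 (SE 0.53, adjusted p = 0.00952), or -1.46 (adjusted p = 0.0625) without CD4NIKΔ 1. Of the 44 genes, 40 had a positive and 4 a negative log2 fold change. Among these 4 was *Glul* of the astrocyte list, lower without overlap but by less than 2-fold (-0.89, SE 0.23, edgeR adjusted p = 0.00738). When libraries were scaled to the neuronal sum the calls were 0 higher and 3 lower, beside 34 higher and 8323 lower among all genes, and without CD4NIKΔ 3 the calls numbered 11.

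**Figure D4:**
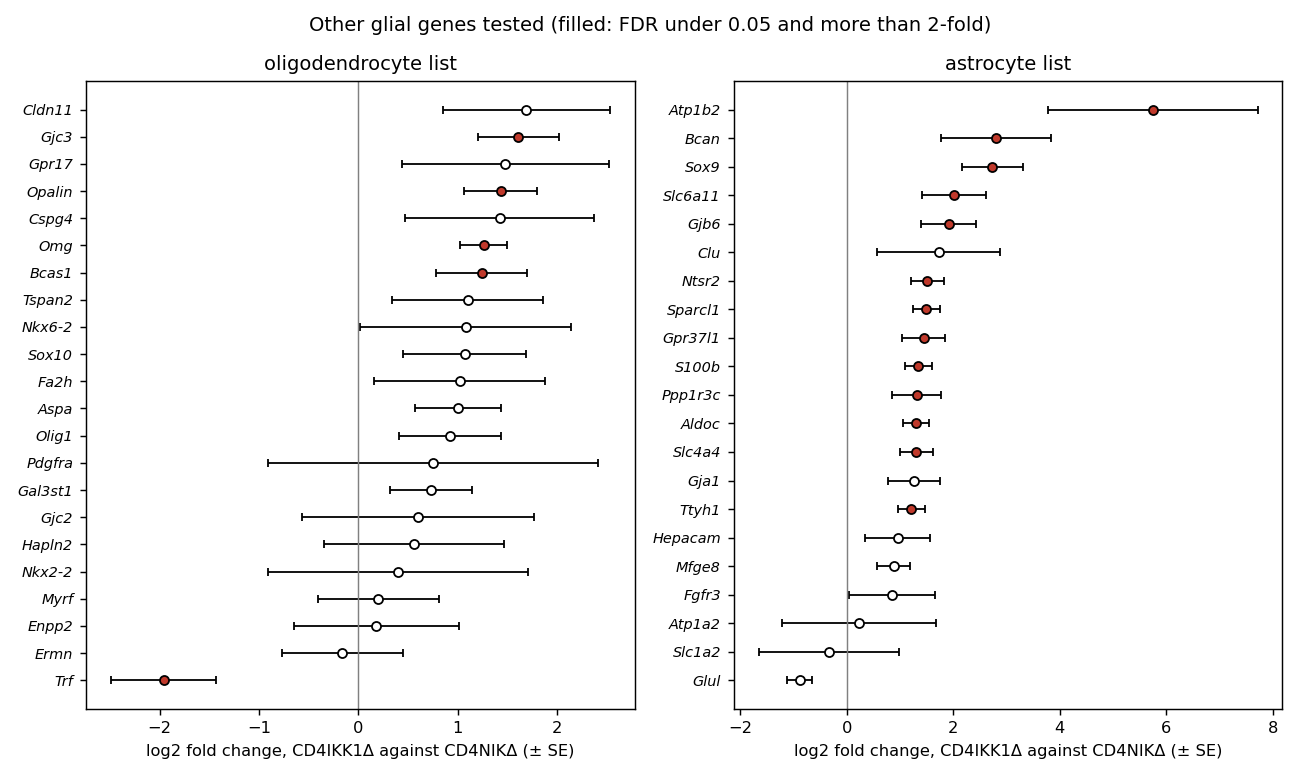
Log2 fold change with its SE for the other oligodendrocyte genes (left) and astrocyte genes (right) tested in CD4IKK1Δ against CD4NIKΔ. Filled points passed the FDR of 0.05 and 2-fold thresholds, 17 of the 43 points drawn lying filled to the right of 0 and 1, *Trf*, to the left, and 1 tested gene is not drawn.

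In CD4NIKΔ against CD4cre, 5 of the 41 genes tested were called, all lower in CD4NIKΔ, beside 17.4% of all genes (6.99% lower and 10.4% higher). They were *Gjc3* at -1.85 (SE 0.44, adjusted p = 0.0246), *Sox9* at -2.21 (SE 0.58, adjusted p = 0.0319), the astrocyte receptor gene *Ntsr2* at -1.56 (SE 0.41, adjusted p = 0.0334), *Omg* at -1.09 (SE 0.30, adjusted p = 0.0361) and *Sparcl1* at -1.16 (SE 0.33, adjusted p = 0.0409) on the log2 scale, by edgeR. The median over the 41 was -0.96 against -0.02 over all genes. Single libraries decided this count: it was 0 without CD4cre 3, CD4NIKΔ 2 or CD4NIKΔ 3, 1 without CD4cre 2 and 11 without CD4NIKΔ 1, and scaled to the neuronal sum it was 3 higher and 0 lower, beside 6136 higher and 17 lower among all genes.

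In CD4IKK1Δ against CD4cre 0 of the 43 other glial genes tested were called by edgeR, beside 0% of all genes; 3 had an unadjusted p under 0.05, the smallest adjusted p was 0.207, and DESeq2 called 0 of them, beside 547 genes in all. The median log2 fold change of the list was 0.28, beside 0.02 over all genes.

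Markers of the same cell types were uneven in level. *Sparcl1* stood at 47.9 to 249 CPM over the 11 libraries, *Aldoc* at 35.3 to 156 CPM, *Omg* at 39.8 to 141 CPM and *S100b* at 11.7 to 51.7 CPM. *Mal*, *Ugt8a* and *Fabp7*, markers of myelin membrane and of astrocyte precursors, were listed at 0 in every library. *Slc1a2*, the main glutamate transporter of astrocytes, did not exceed 1.15 CPM. Of other cell types that a kidney holds, the summed Schwann cell list stood at 12.3 to 22.1 CPM in CD4cre, 10.4 to 20.2 CPM in CD4IKK1Δ and 15.9 to 30.7 CPM in CD4NIKΔ. The kidney tubule list summed to 168 to 251, 168 to 190 and 119 to 210 CPM in the same order. Its leading gene was *Calb1*, which neurons also make, at 146 ± 16.7 (n = 3), 167 ± 9.5 (n = 5) and 75.3 ± 18.2 CPM (n = 3). *Umod*, which defines the thick ascending limb, stood at 3.66 to 41 CPM in CD4cre, 0 to 2.61 CPM in CD4IKK1Δ and 2.85 to 23.8 CPM in CD4NIKΔ. The part of these cell types in the glial levels was not tested.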

How the data were processed

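RNA-seq of renal CD4+ T cells gave 11 libraries, labelled as biological replicates, with as many mice per group as libraries in the study's text; p-values measure the spread between these samples. The authors trimmed reads with Trimmomatic, pseudoaligned them with kallisto and deposited estimated counts per gene symbol, with 35.3 to 41.8% of values per library not whole. The study's methods name the build GRCm39 and the submitters' processing notes mm10; the kallisto version, annotation and strand setting are not given in the sources used here. Transcripts with shared sequence are split by the estimate, and amplified reads are not independent molecules.

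Estimated counts were rounded and fitted with edgeR 4.0.16 in R 4.3.3 (limma 3.58.1): filterByExpr, TMM factors, robust quasi-likelihood test, Benjamini-Hochberg over all genes tested. Called means FDR under 0.05 and more than 2-fold. The study's own comparisons used DESeq2; version 1.42.0 was an alternative here. CD4IKK1Δ and CD4NIKΔ were each compared with the same CD4cre libraries, and with each other in a fit of all 11. CPM used TMM factors over all libraries (0.9006 to 1.051), and r log2 CPM with a prior count of 2. Of the symbols, 93.6% matched GENCODE M39.

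The 9 genes and the lists were chosen with earlier results of these data known. From each other list the text names genes among the 3 highest in mean CPM and up to 5 called genes of smallest FDR per comparison, and per class the 5 genes most like the most abundant of the 9; other names were added after their values were seen. In the list counts 1 gene is included whose own values are not reported here. Scripts were tested on simulated data.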

Additional observations from a re-analysis of the deposited data

Results flagged for a closer look

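*Sox9* in CD4IKK1Δ 1 stood at 20.9 CPM against 5.71 to 9.02 CPM in the other 4 libraries of the group, a gap of 0.783 of the group's range where Dixon's critical value for 5 samples is 0.71. Values of 20 genes were examined in this way, and chance marks about 1 in 20. Against the CD4cre mean, every library of CD4IKK1Δ lay on one side and every library of CD4NIKΔ on the other for 3 of the 9 genes, a difference that was not tested and that 21.5% of 16668 genes also showed: the mean differences in CD4IKK1Δ and CD4NIKΔ were 26 and -74.2 CPM for *Mobp*, -54.3 and 187 CPM for *Cnp*, and 17.7 and -17.4 CPM for *Slc1a3*.

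The difference between the libraries labelled CD4IKK1Δ and CD4NIKΔ, each set against the same CD4cre libraries, passed the edgeR test for *Omg* (log2 fold change of CD4IKK1Δ against CD4NIKΔ 1.26), *Bcas1* (1.24), *Gjc3* (1.61), *Opalin* (1.43), *Trf* (-1.96), *Sparcl1* (1.49), *Aldoc* (1.3), *Ttyh1* (1.21), *Sox9* (2.73), *Ntsr2* (1.51) and *S100b* (1.34). The call of *Bcas1*, with an adjusted p of 0.0442 by edgeR, was lost in 10 of 19 alternatives, among them RLE factors (adjusted p = 0.0542) and leaving out CD4cre 2, CD4IKK1Δ 2, 4 or 5, or CD4NIKΔ 2 or 3 (0.055 to 0.154). Its log2 fold change in these 10 was 0.85 to 1.29, apart from -0.18 when scaled to the neuronal sum. The call of *Trf* was lost without CD4NIKΔ 1 (log2 fold change -1.46, edgeR adjusted p = 0.0625) and with a replicate block (-1.7, edgeR adjusted p = 0.0889). Scaled to the neuronal sum, only *Trf* of these 11 genes kept its call, with -3.46 (edgeR adjusted p = 0.000285), and *Gjc3* (0.01), *Ntsr2* (0.03) and *Sox9* (0.95) stayed above 0 without passing.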

How the results depend on the processing

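With libraries scaled to the neuronal sum, chosen after the values were seen, log2 fold changes of CD4IKK1Δ against CD4NIKΔ moved to 0 or below for *Mbp* (0), *Mobp* (-0.01), *Slc1a3* (-0.26), *Aqp4* (-0.17), *Mag* (-0.44), *Aldh1l1* (-0.63), *Omg* (-0.28), *Bcas1* (-0.18), *Opalin* (-0.08), *Sparcl1* (0), *Aldoc* (-0.2), *Ttyh1* (-0.39) and *S100b* (-0.22), and those of CD4NIKΔ against CD4cre from below 0 to above it for *Omg* (0.14), *Sparcl1* (0.01), *Slc1a3* (0.43), *Opalin* (0.65), *Ttyh1* (0.36), *S100b* (0.22), *Aldoc* (0.15) and *Mag* (0.99); it moved all genes alike. The scaling gave 153, 6153 and 8357 genes called in CD4IKK1Δ against CD4cre, CD4NIKΔ against CD4cre and CD4IKK1Δ against CD4NIKΔ (0, 2649 and 5512 as reported), of which 0, 6136 and 34 were higher, and 3 other glial genes in each of the last 2 comparisons; all-gene medians moved to -0.32, 1.29 and -1.57.

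CD4IKK1Δ against CD4cre, with 0 genes called by edgeR and 2592 at an unadjusted p under 0.05, gave 1 with RLE factors, 48 with a filter of 1 count, 547 with DESeq2, 129 with all 11 libraries, and 36 without CD4IKK1Δ 1 and 2. Leaving out each library gave 0 to 23. Other glial genes called in CD4NIKΔ against CD4cre (5 as reported) numbered 9 without normalization factors, 11 with DESeq2 and 8 with all 11 libraries. Higher and lower calls there, 1586 and 1063 as reported, were 1382 and 1438 without factors and 865 and 1264 with all 11 libraries. Leaving out each library gave 674 to 3468 genes and 0 to 11 other glial genes in CD4NIKΔ against CD4cre (674 without CD4NIKΔ 3, 859 without CD4cre 3, 918 without CD4NIKΔ 2, 1001 without CD4cre 2, of which 60, 79, 66 and 117 were lower), 4116 to 5556 genes and 11 to 21 other glial genes in CD4IKK1Δ against CD4NIKΔ, and 0 other glial genes in CD4IKK1Δ against CD4cre. The cause was not tested.

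A replicate block gave 3 genes in CD4IKK1Δ against CD4cre and 1185 (190 lower) in CD4NIKΔ against CD4cre, and 0 and 12 other glial genes in CD4NIKΔ against CD4cre and CD4IKK1Δ against CD4NIKΔ. Deviations of same-numbered libraries correlated at -0.0886 to 0.0749, so the libraries share only a number. Spread between libraries limits *Mog*, *Mag*, *Gfap* and *Aldh1l1*.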

Other observations

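Markers of peripheral glia and of microglia, which share genes with macrophages, were mixed in CD4NIKΔ against CD4cre: 3 of 5 Schwann cell genes and 5 of 9 microglia genes tested had a positive log2 fold change, with 1 and 2 called, all higher, beside 10.4% of all genes. *Egr2*, a transcription factor of Schwann cells that activated T cells also make, was at 9.82 ± 3.29 CPM in CD4NIKΔ (SD, n = 3) and 3.07 ± 1.2 CPM in CD4cre (n = 3), a log2 fold change of 1.66 (SE 0.50, edgeR adjusted p = 0.0489), while *Plekhb1* had -1.75 (SE 0.99, edgeR adjusted p = 0.236). *Gpr34* and *Cx3cr1*, receptors of microglia and other myeloid cells, were also higher in CD4NIKΔ than in CD4cre, by 2.74 (SE 0.62, edgeR adjusted p = 0.0225) and 1.56 (SE 0.45, edgeR adjusted p = 0.0431) on the log2 scale, while *P2ry12*, a purinergic receptor that defines microglia, had -1.56 (SE 0.79, edgeR adjusted p = 0.188). The summed microglia list ranged from 41.8 to 80.8 CPM in CD4cre, 36.4 to 55.9 CPM in CD4IKK1Δ and 65.7 to 96.7 CPM in CD4NIKΔ, and the myeloid list from 417 to 1810, 88.8 to 251 and 618 to 938 CPM.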
